A study of Mus musculus with 9 samples.

Results

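The platelet-derived growth factor (PDGF) family was examined in the bulk RNA-Seq data of sorted lung fibroblasts. The members were taken by symbol, and all 7 genes looked for (Pdgfa, Pdgfb, Pdgfc, Pdgfd, Pdgfra, Pdgfrb, and Pdgfrl) were found once each among the 43346 genes of the deposited table. The rule was the gene symbol alone, although the family was picked with earlier results of these data known. The libraries came from Col1a1-GFP mice, whose reporter is driven by the collagen I promoter and therefore marks cells in which that promoter is active. Mice were male, on an FVB background, and aged (18 months in the protocol, 72 weeks in the sample characteristics), and they received a single intratracheal dose of saline (aged sham, n = 4) or bleomycin (aged bleo, n = 5). On day 30, GFP+ cells that lacked CD45, CD31, and EpCAM were sorted, so that leukocytes, endothelial cells, and epithelial cells were gated out in both groups. The libraries held 49921946 to 68260600 counts each. The comparison asks how the transcripts of a growth factor family that acts on fibroblasts differed between injured and uninjured aged lungs.

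PDGFs are dimeric growth factors that drive the growth, migration, and survival of mesenchymal cells. PDGF-A and PDGF-B are trimmed by furin-type convertases inside the cell, whereas PDGF-C and PDGF-D are secreted as latent dimers with a CUB domain that proteases such as the plasminogen activators remove outside the cell. The receptor tyrosine kinase PDGFRα binds the A, B, and C chains, and PDGFRβ binds mainly the B and D chains. In the lung, Pdgfra is a marker of alveolar fibroblasts and their precursors, and Pdgfrb is carried by pericytes and by many fibroblasts. Pdgfrl encodes a secreted protein that resembles the extracellular part of the receptors and has no kinase.

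After bleomycin, the sorted cells differed in which PDGF ligands they transcribed. Compared with aged sham, Pdgfc was 9.73-fold and Pdgfa 3.52-fold higher in aged bleo, Pdgfd was 2.81-fold lower, and Pdgfb did not differ detectably. Of the receptors, Pdgfrb was 1.58-fold higher. Pdgfra and Pdgfrl did not pass the thresholds, which were an FDR (the Benjamini-Hochberg adjusted p-value of edgeR's quasi-likelihood test, over the 16877 genes tested) under 0.10 together with a fold change over 1.5. All 7 members had an average count of at least 25 and were tested. Thus 3 members were called higher (background over all tested genes, 12.3%) and 1 lower (background, 11.5%), or 4 of 7 against 23.8% of all genes in either direction. With so few members this count is a description only. In these bulk libraries, fewer cells of a type and less RNA per cell cannot be told apart.

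The promoters of the ligands that moved most in opposite directions are shown first, since they are the regulatory sequence nearest to the finding. The sequences are the 250 bases before the RefSeq start (build GRCm38.p6), read 5′ to 3′ on the strand of the gene. Both Pdgfc, at chr3:81036166-81036415, and Pdgfd, at chr9:6168236-6168485, lie on the plus strand. Capitals mark the motifs found.
Pdgfc: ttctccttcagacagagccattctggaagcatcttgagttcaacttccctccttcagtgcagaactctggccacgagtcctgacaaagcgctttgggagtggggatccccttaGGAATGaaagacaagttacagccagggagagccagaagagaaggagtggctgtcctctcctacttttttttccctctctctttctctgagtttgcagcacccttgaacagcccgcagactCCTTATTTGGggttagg
Pdgfd: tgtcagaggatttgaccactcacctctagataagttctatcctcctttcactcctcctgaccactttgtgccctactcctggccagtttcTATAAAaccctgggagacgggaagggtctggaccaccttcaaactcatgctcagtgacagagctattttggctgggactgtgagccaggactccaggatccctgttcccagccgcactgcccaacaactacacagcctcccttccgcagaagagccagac
In the Pdgfc window, the capitals nearest to the start are a CArG box, the element bound by serum response factor, which spanned bases 17 to 8 before the start, and the others are a TEAD site (GGAATG). A CArG box was held by 1.47% and a TEAD site by 12.6% of the 32851 RefSeq windows of this length. The Pdgfd window held the letters of a TATA box (TATAAA), as did 12.4% of all windows, and neither of the motifs of Pdgfc. This match lay far from the start, at bases 160 to 155 before it. The search covered both strands for 7 motifs, also the AP-1 site (TGANTCA, in 6.75% of windows), the GC box (GGGCGG, 32.7%), the EGR site (GCGNGGGCG, 4.70%), and the NFAT core (GGAAA, 55.6%), whose single match in Pdgfc was left in lower case. A GC box match can share bases with an EGR site match. The Pdgfra window held 4 NFAT cores and no other motif. The motifs were chosen with the expression results and these sequences known, and a match is a description of letters only. Windows for Pdgfa, the other raised ligand, lie within the annotated bounds of that gene and are not shown. Between them they held GC boxes and NFAT cores, but no CArG box and no TEAD site. No windows were available for Pdgfb, Pdgfrb, and Pdgfrl.

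Among the ligands, Pdgfc (ENSMUSG00000028019, chromosome 3, 81036416 to 81214040, plus strand), which encodes a PDGFRα ligand, had the largest difference. Its level in CPM (counts scaled to library size, with TMM normalization) was 3.86, 5.95, 5.24, and 4.70 in aged sham 1 to 4. In aged bleo 1 to 5 it was 41.2, 30.3, 42.1, 62.3, and 64.2 CPM. Every injured library was therefore far above every uninjured library, and the lowest aged bleo library was number 2. The means were 48.0 ± 14.7 CPM (SD, n = 5) and 4.94 ± 0.884 CPM (SD, n = 4), with a log2 fold change of 3.28, a standard error of 0.25, and an FDR of 5.14e-05. This change was larger in size than that of 98.7% of the genes tested. In uninjured fibroblasts, Pdgfc was the least abundant member per length, and its counts were between 233 and 348.

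Pdgfa (ENSMUSG00000025856, chromosome 5, 138976014 to 138997370, minus strand), which encodes the A chain that binds PDGFRα alone, was at 17.0, 26.7, 22.8, and 15.5 CPM in aged sham 1 to 4. In aged bleo 1 to 5, its level was 61.0, 45.1, 68.9, 115, and 71.8 CPM. The groups did not overlap, and aged bleo 4 stood highest and aged bleo 2 lowest among the injured libraries. The difference, 72.2 ± 25.8 CPM (SD, n = 5) against 20.5 ± 5.18 CPM (SD, n = 4), passed the thresholds (log2 fold change 1.82, standard error 0.27, FDR 0.00158). Without aged bleo 4 the log2 fold change was 1.58. The library kit did not mark strand, and 813 exonic bases of Pdgfa are shared with 6330403L08Rik on the opposite strand, so reads there cannot be assigned. That gene was less abundant, and it rose as well, from 11.9 ± 2.66 CPM (SD, n = 4) to 20.4 ± 1.34 CPM (SD, n = 5; log2 fold change 0.78, standard error 0.14, FDR 0.00361). Pdgfc likewise shares 147 exonic bases with the opposite-strand gene Gm16000, which held at most 148 counts in any library and rose too (log2 fold change 3.61, standard error 0.34, FDR 1.28e-04).

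Pdgfd (ENSMUSG00000032006, chromosome 9, 6168612 to 6378843, plus strand), a PDGFRβ ligand, went the other way. It was tightly grouped at 63.7, 76.2, 70.9, and 69.4 CPM in aged sham 1 to 4, and it was at 30.8, 44.2, 26.7, 7.78, and 15.5 CPM in aged bleo 1 to 5. All injured libraries were below all uninjured libraries, but they spread widely, with aged bleo 4 lowest and aged bleo 2 highest. In FPKM (counts scaled to library size and gene length), Pdgfd fell from 9.42 ± 0.788 (SD, n = 4) to 3.41 ± 1.87 (SD, n = 5), and the test on counts gave a log2 fold change of -1.49 with a standard error of 0.40 and an FDR of 0.0198. Without aged bleo 4, the log2 fold change was -1.27 and the FDR 0.00809. The coefficient of variation among aged bleo libraries was 56.3% for Pdgfd, the highest of the members, against 7.36% among aged sham libraries.

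Pdgfb (ENSMUSG00000000489, chromosome 15, 79995900 to 80014808, minus strand), the chain that binds both receptors and is made mainly by endothelial cells and platelets, was scarce in every library. It was at 2.92, 5.41, 4.81, and 3.00 CPM in aged sham 1 to 4 and at 4.20, 5.10, 4.56, 4.16, and 2.75 CPM in aged bleo 1 to 5. The aged bleo values lay almost wholly within the range of the aged sham values. Counts were between 149 and 316, and the log2 fold change was 0.04 (standard error 0.24, FDR 0.911), with a 95% confidence interval from -0.50 to 0.59. A change within these bounds cannot be resolved with these libraries. The sign turned negative without aged sham 1 (-0.09), aged sham 4 (-0.08), or aged bleo 2 (-0.04). The endothelial cadherin gene Cdh5 was also scarce, at 1.67 ± 0.653 CPM (SD, n = 4) for aged sham and 1.64 ± 0.416 CPM (SD, n = 5) for aged bleo.

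**Figure D1:**
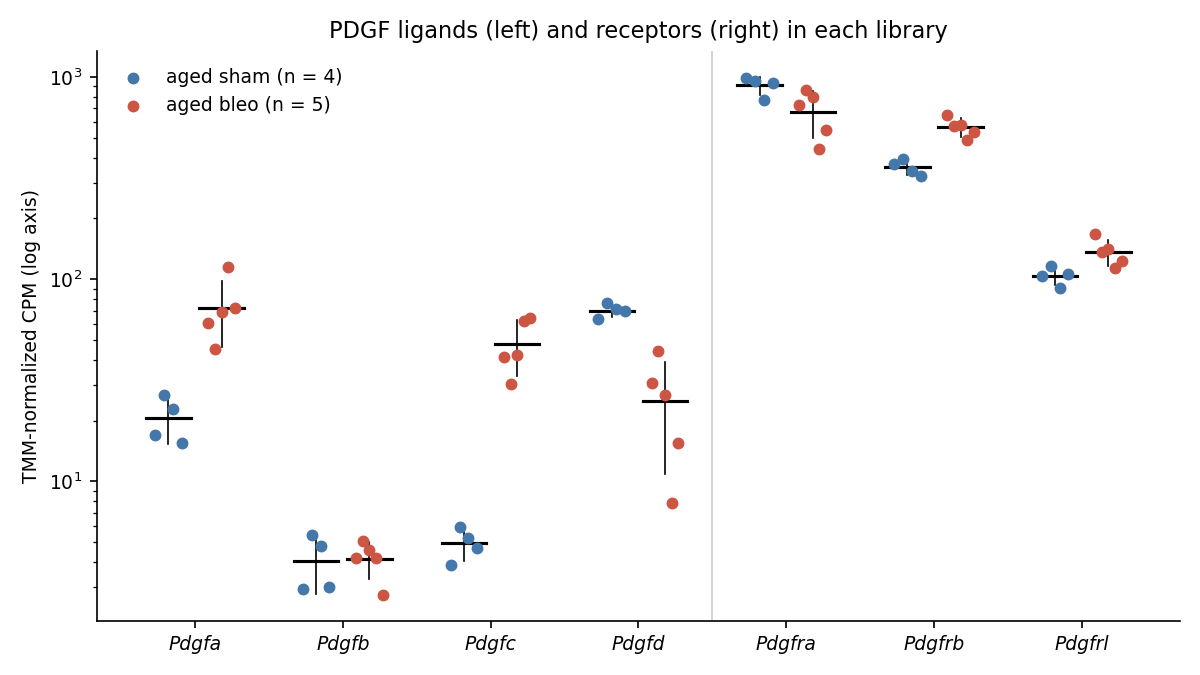
TMM-normalized CPM on a log axis for the 4 ligand genes (left of the line) and the 3 receptor genes (right) in aged sham (blue, n = 4) and aged bleo (red, n = 5), with each point a library in the order of its number, horizontal lines for means, and vertical lines for ± SD. Pdgfa, Pdgfc, and Pdgfrb are higher and Pdgfd is lower in all aged bleo libraries, without overlap, and Pdgfb overlaps between the groups.

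Levels of different genes were compared per length, by the FPKM values that the authors deposited. The summed FPKM of the 4 ligand genes was 13.2 ± 1.72 in aged sham (SD, n = 4) and 18.1 ± 3.32 in aged bleo (SD, n = 5), and the lowest aged bleo value, 15.2, lay just under the highest aged sham value, 15.3. The make-up of this sum differed far more than its size. In aged sham, Pdgfd held 71.8% ± 3.88 (SD, n = 4) of the ligand FPKM, with 73.9%, 67.8%, 69.5%, and 76.2% in the libraries 1 to 4. In aged bleo it held 25.4%, 39.0%, 21.1%, 4.71%, and 11.9% in the libraries 1 to 5, less in each than in any aged sham library. Pdgfa took the larger part after injury, with 53.9% ± 10.7 (SD, n = 5) against 20.8% ± 2.94 (SD, n = 4). The share of Pdgfc was 22.2% ± 5.17 (SD, n = 5) in aged bleo and 3.08% ± 0.229 (SD, n = 4) in aged sham. Thus the PDGFRα ligands Pdgfa and Pdgfc together held from 20.2% to 27.0% of the ligand FPKM in aged sham and from 56.2% to 92.6% in aged bleo. Such ratios within a library do not depend on how libraries are scaled to each other, and they are given as a description with no test.

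**Figure D2:**
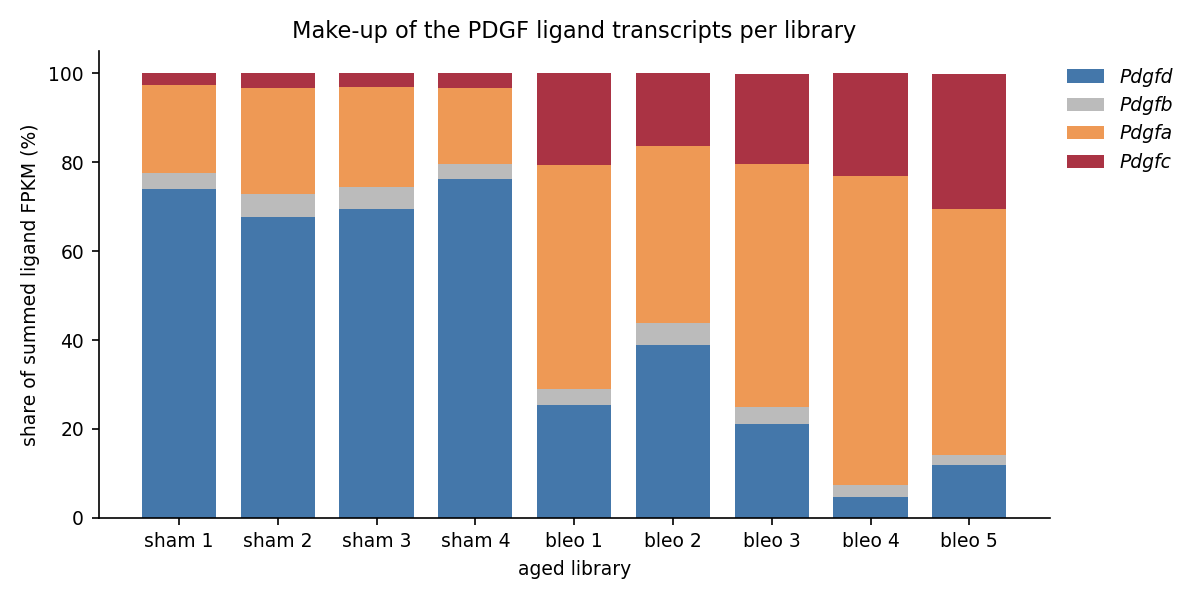
Share of the summed ligand FPKM, in percent, held by Pdgfd (blue), Pdgfb (grey), Pdgfa (orange), and Pdgfc (dark red) in each aged sham and aged bleo library. Pdgfd holds at least 67.8% in each aged sham library and at most 39.0% in each aged bleo library, where Pdgfa and Pdgfc hold the larger part.

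Both receptor kinases were abundant. Pdgfra (ENSMUSG00000029231, chromosome 5, 75152291 to 75198204, plus strand) was at 986, 957, 775, and 932 CPM in aged sham 1 to 4, higher than 99.4% of the genes tested. It was at 726, 865, 799, 440.2, and 550.2 CPM in aged bleo 1 to 5. The groups overlapped, since aged bleo 2 and 3 lay above aged sham 3, while aged bleo 4 and 5 were lowest. The means of 676 ± 177 CPM (SD, n = 5) and 912 ± 94.0 CPM (SD, n = 4) gave a log2 fold change of -0.43 with a standard error of 0.19, an FDR of 0.112, and a 95% confidence interval from -0.87 to 0.01. Pdgfra therefore did not pass the thresholds. Its FDR ranged from 0.0521 to 0.212 over the 19 alternatives and was under 0.10 in 6 of them, always with a fold change under 1.5. Pdgfra shares exonic bases with the opposite-strand genes Gm42802 (456 bases) and Gm42803 (166 bases), whose counts were not analysed here, and 30 bases with the microRNA gene Mir7025 on the same strand, which held 164 to 303 counts.

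Pdgfrb (ENSMUSG00000024620, chromosome 18, 61045150 to 61085061, plus strand) was at 371, 393, 342, and 325 CPM in aged sham 1 to 4. It was at 651, 575, 578, 488, and 533 CPM in aged bleo 1 to 5, above aged sham in every library and with little spread in either group. Its mean rose from 358 ± 30.1 CPM (SD, n = 4) to 565 ± 60.6 CPM (SD, n = 5; log2 fold change 0.66, standard error 0.11, FDR 0.00209), with a 95% confidence interval from 0.42 to 0.90 that reaches below the 1.5-fold threshold. The CPM ranges of 4 of 7 members did not overlap (background in either direction, 32.2% of tested genes), of which 3 were higher (background, 16.1%) and 1 was lower (background, 16.1%).

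In FPKM, Pdgfra exceeded Pdgfrb 2.08 ± 0.213-fold (SD, n = 4) in aged sham, with ratios of 2.16, 1.98, 1.84, and 2.33 in the libraries 1 to 4. In aged bleo, the ratios were 0.907, 1.22, 1.12, 0.733, and 0.839 in the libraries 1 to 5, around equal levels and below those of all aged sham libraries. Pdgfrb was higher in all 5 injured libraries, and Pdgfra was lowest in aged bleo 4 and 5.

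**Figure D3:**
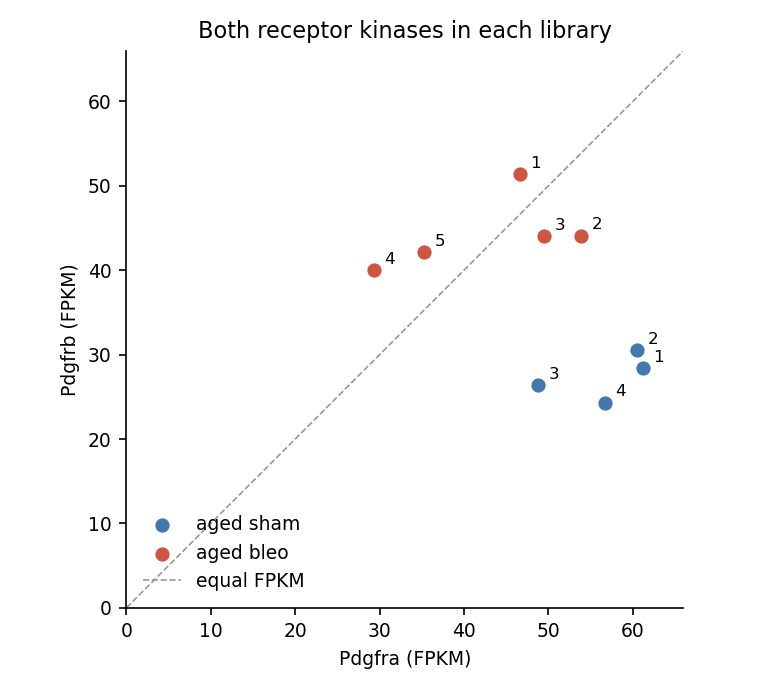
Deposited FPKM of Pdgfrb (vertical axis) against Pdgfra (horizontal axis) in the aged sham (blue) and aged bleo (red) libraries, numbered within each group, with a dashed line at equal FPKM. The aged sham libraries lie below the line at ratios of Pdgfra to Pdgfrb from 1.84 to 2.33, and the aged bleo libraries lie around it at ratios from 0.733 to 1.22.

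Pdgfrl (ENSMUSG00000031595, chromosome 8, 40926212 to 40990785, plus strand) was at 104, 116, 91.0, and 106 CPM in aged sham 1 to 4 and at 167, 136, 142, 114, and 123 CPM in aged bleo 1 to 5. In CPM the groups met at aged bleo 4 and aged sham 2, whereas in FPKM all aged bleo libraries (16.4 to 23.1) were above all aged sham libraries (12.3 to 15.8). Its log2 fold change was 0.39 (standard error 0.12, FDR 0.0320, 95% confidence interval from 0.12 to 0.65). Pdgfrl passed the FDR threshold but not the fold change threshold, under every alternative tried.

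Ordered by FPKM, the members in aged sham were Pdgfra (56.8 ± 5.71), Pdgfrb (27.4 ± 2.64), Pdgfrl (14.0 ± 1.40), Pdgfd (9.42 ± 0.788), Pdgfa (2.77 ± 0.738), Pdgfb (0.582 ± 0.190), and Pdgfc (0.408 ± 0.0773; all SD, n = 4). Only the neighbours Pdgfb and Pdgfc had overlapping ranges in this order. In aged bleo, the order was Pdgfrb (44.3 ± 4.30), Pdgfra (42.9 ± 10.2), Pdgfrl (18.7 ± 2.62), Pdgfa (10.0 ± 3.89), Pdgfc (4.08 ± 1.34), Pdgfd (3.41 ± 1.87), and Pdgfb (0.611 ± 0.122; all SD, n = 5). There the ranges of Pdgfrb and Pdgfra, of Pdgfrl and Pdgfa, and of Pdgfc and Pdgfd overlapped. Receptor transcripts exceeded ligand transcripts in both groups, with the summed FPKM of both kinases at 5.43 to 7.74 times that of the ligands in aged sham and 2.92 to 6.43 times in aged bleo.

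The injured libraries were not alike. Aged bleo 2 had the lowest Pdgfa and Pdgfc and the highest Pdgfd and Pdgfra of the 5, whereas aged bleo 4 had the highest Pdgfa and the lowest Pdgfd, Pdgfra, Pdgfrb, and Pdgfrl. Among the aged bleo libraries, the summed adventitial, alveolar, pericyte, and smooth muscle markers were likewise highest in number 2 and lowest in number 4. Macrophage sums were highest in number 4 but lowest in number 1, with number 2 in between. The summed level of 7 adventitial fibroblast markers was 8371 to 9443 CPM in aged sham and 1381 to 5079 CPM in aged bleo, with all 7 genes lower past the thresholds, and it was highest in aged bleo 2 and lowest in aged bleo 4. For 9 alveolar fibroblast markers, the sums were 2350.5 to 3806 CPM in aged sham and 866 to 2475 CPM in aged bleo, with 2 genes called higher (Npnt and Scube2) and 3 lower (Inmt, Tcf21, and Ces1d). The lower sum was mostly Inmt, which fell from 1984 ± 436 CPM (SD, n = 4) to 559.8 ± 352 CPM (SD, n = 5), while the median log2 fold change of the list was 0.25. The 8 pericyte markers, a list that bears on Pdgfrb, summed to 879.6 to 1081 CPM in aged sham and 373 to 922 CPM in aged bleo, with 3 called higher (Notch3, Higd1b, and Cox4i2) and 2 lower (Abcc9 and Kcnj8). This sum too was mostly 1 gene, Abcc9, which fell from 649 ± 57.2 CPM (SD, n = 4) to 275 ± 157 CPM (SD, n = 5), while the median log2 fold change of the list was 0.31. Of the pericyte markers called higher, Higd1b and Cox4i2 were scarce, at no more than 4.10 and 3.99 CPM in any library. The ranges of Notch3 overlapped between the groups. Smooth muscle and myofibroblast markers (7 genes) summed to 3094 to 6306 CPM in aged sham and 2252 to 3402 CPM in aged bleo, with 3 called lower and none higher. The 8 macrophage markers went the other way, from 123 to 228 CPM in aged sham to 433 to 1449 CPM in aged bleo, and aged bleo 4 held the most. Most of this sum was Lyz2, which rose from 117 ± 33.6 CPM (SD, n = 4) to 628 ± 303 CPM (SD, n = 5). In this list, 4 genes were called higher (Lyz2, Cd68, Adgre1, and Mrc1), and the ranges of Adgre1 and Mrc1 overlapped between the groups. The other 4 (Marco, C1qa, C1qb, and C1qc) were not called, and their ranges overlapped too. Neutrophil markers (6 genes, 169.5 to 1017 CPM in aged sham and 84.8 to 905 CPM in aged bleo) and pan-leukocyte markers (5 genes, 90.7 to 341 and 95.2 to 524 CPM) were highest in aged sham 4 and aged bleo 4. No listed marker was at 0 in every library. The part of these cells in the PDGF results was not tested. Without aged bleo 4 and aged sham 4, the 4 calls remained, with log2 fold changes of 3.13 for Pdgfc, 1.46 for Pdgfa, -1.28 for Pdgfd, and 0.65 for Pdgfrb.

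Endothelial and epithelial markers bear on the sort. The 8 endothelial markers summed to 165 to 204 CPM in aged sham and 28.5 to 72.8 CPM in aged bleo, and most of this was Tek, an angiopoietin receptor gene, which fell from 161 ± 12.9 CPM (SD, n = 4) to 28.9 ± 18.8 CPM (SD, n = 5; log2 fold change -2.48, standard error 0.46, FDR 0.00425). The scarce Kdr (log2 fold change 0.61, FDR 0.0500) and Egfl7 (log2 fold change 0.88, FDR 0.0500) were called higher, 4 of the 7 endothelial markers tested were not called, and the median log2 fold change of the list was -0.03. Of the gated surface markers, Pecam1 (CD31) reached no more than 6.70 CPM and Epcam no more than 1.20 CPM in any library. Ptprc (CD45), in contrast, was detected at 42.3 to 169 CPM among the aged sham libraries and at 30.6 to 183 CPM among the aged bleo libraries. Fibroblast collagen genes were abundant throughout, with Col1a1 at 3649 to 4559 CPM in aged sham and 13560.2 to 25954 CPM in aged bleo. Of the 6 fibroblast identity genes listed, 3 were called higher (Col1a1, Col1a2, and Col3a1) and 2 were not called (Lum and Pdgfra). Dcn was called lower, from 8122 ± 558 CPM (SD, n = 4) to 2795 ± 1249 CPM (SD, n = 5; log2 fold change -1.54, standard error 0.32, FDR 0.00667). The 6 platelet markers, which bear on Pdgfb, summed to 31.2 to 43.9 CPM in aged sham and 22.6 to 31.7 CPM in aged bleo. Most of this sum was Gp1bb (19.7 ± 2.47 CPM, SD, n = 4, in aged sham and 15.4 ± 2.42 CPM, SD, n = 5, in aged bleo) and Itga2b. Pf4 and Ppbp reached no more than 3.85 and 4.19 CPM in any library. Of the 5 platelet markers tested, 1 (Ppbp) was called lower and 4 were not called. The 9 epithelial markers summed to no more than 99.4 CPM in any library, and the 4 mesothelial markers to no more than 106 CPM. Of the epithelial markers, 1 was called higher (Krt8), 2 were called lower (Ager and Nkx2-1), and 6 were not called. The 4 mesothelial markers were not called.

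**Figure D4:**
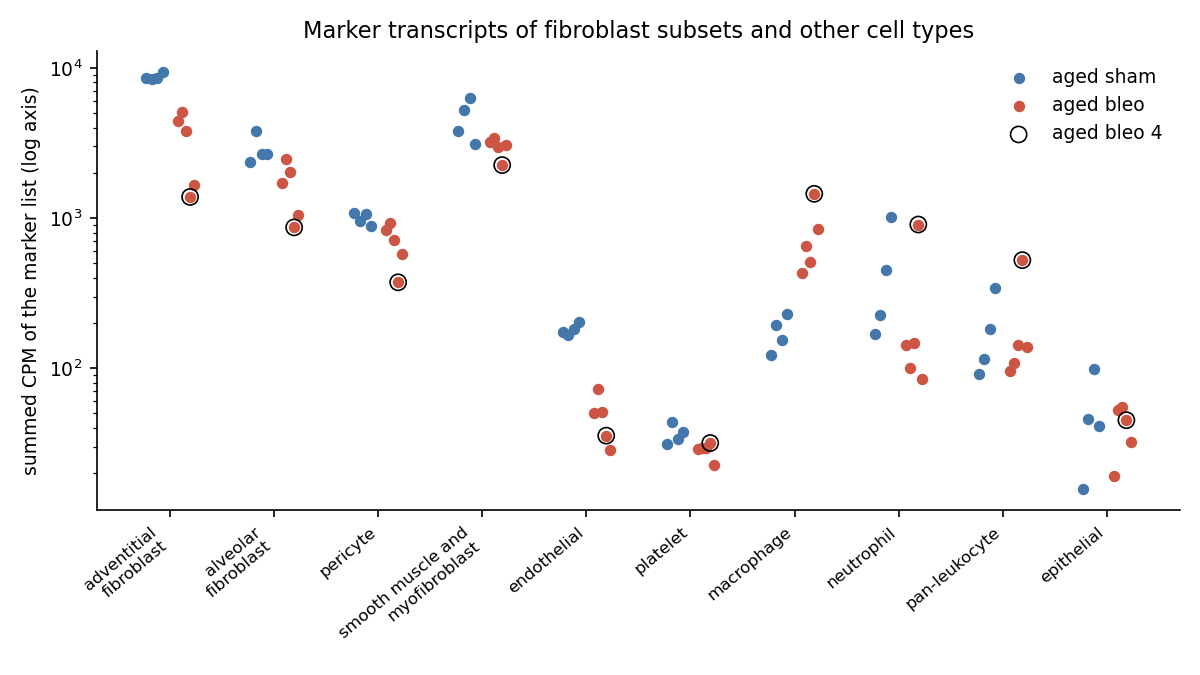
Summed CPM of marker lists on a log axis in each aged sham (blue) and aged bleo (red) library, with aged bleo 4 circled. Adventitial fibroblast sums are lower (1381 to 5079 against 8371 to 9443 CPM) and macrophage sums higher (433 to 1449 against 123 to 228 CPM) in every aged bleo library. Most of the mean macrophage sum is Lyz2.

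Genes that act around and below the receptors were listed as well. All 54 such genes, in 4 lists, were tested, and 8 were called higher and 3 lower, or 20.4% against the background of 23.8%. Their median log2 fold change was 0.20, beside 0.01 for all genes tested.

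Outside the cell, 10 genes of ligand processing and receptor partnership were listed, of which 2 were higher, 1 was lower, and 7 did not pass (median log2 fold change 0.23). Furin, the convertase that trims PDGF-A and PDGF-B, rose from 82.3 ± 2.24 CPM (SD, n = 4) to 180.2 ± 38.0 CPM (SD, n = 5), with a log2 fold change of 1.13, a standard error of 0.15, and an FDR of 7.30e-04. Sparc, a matrix protein that can bind PDGF, was 1.72 higher on the log2 scale (standard error 0.16, FDR 1.11e-04). The related convertase Pcsk6 fell from 428 ± 15.1 CPM (SD, n = 4) to 72.9 ± 52.8 CPM (SD, n = 5), a log2 fold change of -2.55 (standard error 0.54, FDR 0.00717). For Plat, the tissue plasminogen activator that releases active PDGF-CC, the mean was 379 ± 28.5 CPM (SD, n = 4) for aged sham and 311 ± 60.8 CPM (SD, n = 5) for aged bleo, with no call (log2 fold change -0.28, standard error 0.15, FDR 0.157). The co-receptor Nrp1 was higher in all aged bleo libraries but stayed under a fold change of 1.5 (log2 fold change 0.54, standard error 0.12, FDR 0.00866).

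Of 28 adaptors and effectors, 3 were higher, 1 was lower, and 24 did not pass (median log2 fold change 0.11). Pik3r1, the regulatory subunit of PI3K that docks on the activated receptors, rose from 114 ± 4.40 CPM (SD, n = 4) to 182 ± 6.83 CPM (SD, n = 5), a log2 fold change of 0.67 with a standard error of 0.06 and an FDR of 1.12e-04. The SH2 adaptor Nck2 rose from a low level, 14.2 ± 1.70 CPM (SD, n = 4), to 35.2 ± 6.21 CPM (SD, n = 5; log2 fold change 1.31, standard error 0.15, FDR 3.08e-04). The Src family kinase Fyn fell (log2 fold change -1.43, standard error 0.20, FDR 0.00109), and Src itself, also called, was 0.63 higher on the log2 scale (standard error 0.14, FDR 0.00941).

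Among 9 attenuators of receptor signalling, 2 were higher, none was lower, and 7 did not pass (median log2 fold change 0.21). The tyrosine phosphatase gene Ptpn1 was 0.62 higher on the log2 scale (standard error 0.08, FDR 7.61e-04). Of 7 related class III receptor and ligand genes, Il34 was called higher (log2 fold change 1.47, standard error 0.28, FDR 0.00493) and Flt3l lower (log2 fold change -1.68, standard error 0.40, FDR 0.0114). The related receptors Kit and Flt3 were at no more than 6.79 and 1.68 CPM in any library.

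**Figure D5:**
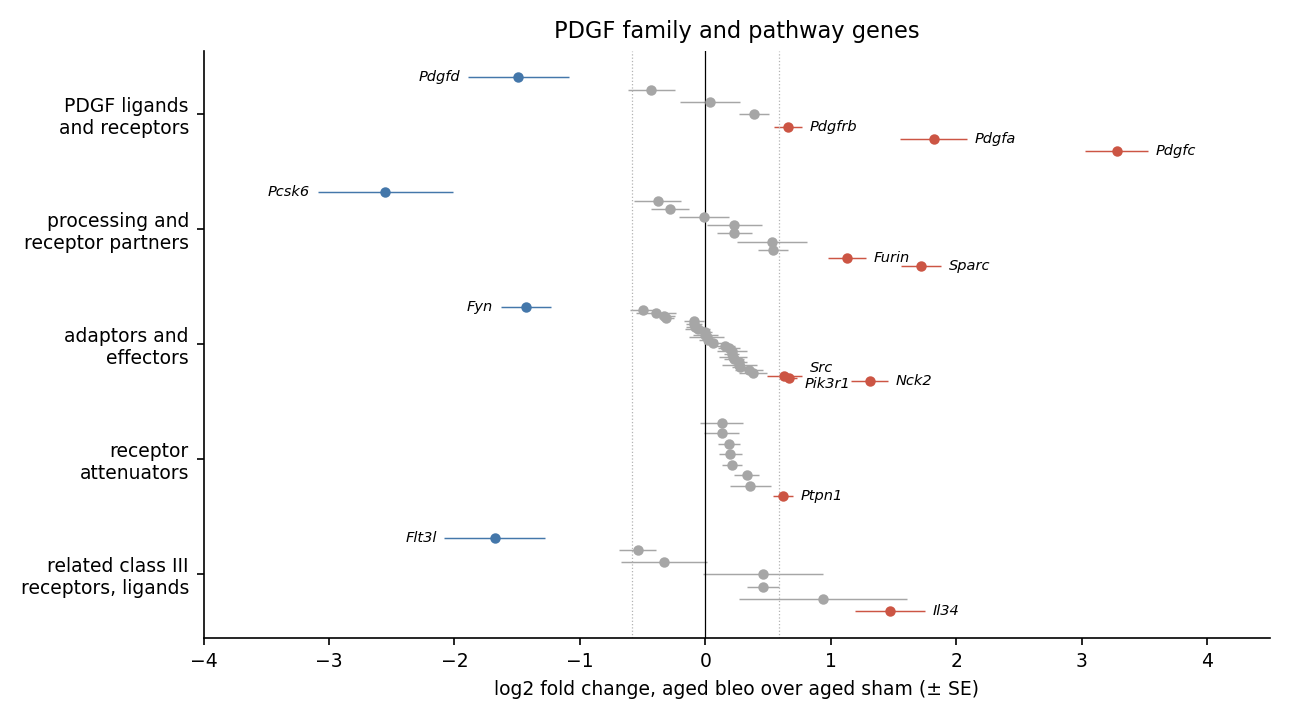
Log2 fold change of aged bleo over aged sham, with standard errors, for the PDGF members and for 4 lists of pathway genes, with genes past both thresholds in red (higher) or blue (lower) and named, others in grey, and dotted lines at a fold change of 1.5. Of the attenuators, 1 gene is not drawn. Pdgfc at 3.28 and Pdgfa at 1.82 lie farthest to the right of all genes shown, and most of the 28 adaptors and effectors lie between the dotted lines.

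The genes whose log2 CPM followed each member most closely over the 9 libraries were found among 10008 genes with a mean of at least 10 CPM. These values of Pearson's r are descriptions, since the libraries share a treatment, and r after centring within each treatment is given beside them. Pdgfc was most like Npr3 (r = 0.996, centred 0.903), Tmem26 (0.996, centred 0.895), and the collagen lysyl hydroxylase gene Plod1 (0.995, centred 0.899). Pdgfa was most like Klhdc3 (r = 0.992, centred 0.952), the lysyl hydroxylase gene Plod3 (0.990, centred 0.940), and Txnl4a (0.990, centred 0.947). For Pdgfd, the nearest genes were Ccdc149 (r = 0.996, centred 0.992), the glypican gene Gpc6 (0.996, centred 0.990), and the carnitine transporter gene Slc22a5 (0.996, centred 0.989). Pdgfra went with Twsg1 (r = 0.985, centred 0.974), Crispld2 (0.984, centred 0.974), and Fas (0.981, centred 0.968). Pdgfrb went with F11r (r = 0.987, centred 0.923), Limd1 (0.986, centred 0.884), and Ccdc8 (0.986, centred 0.882). Pdgfrl was nearest to Mxra8 (r = 0.960, centred 0.903), Fads1 (0.952, centred 0.919), and Ip6k2 (0.949, centred 0.880). The scarce Pdgfb was nearest to Gm20460 (r = 0.946, centred 0.957), Atp13a2 (0.878, centred 0.888), and Vps51 (0.875, centred 0.880).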

How the data were processed

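The data were 9 RNA-Seq libraries of sorted fibroblasts, 4 aged sham and 5 aged bleo, taken as separate mice. P-values measure the spread between these libraries. The submitters' processing notes name STAR 2.5.2b, Subread, and featureCounts and the builds mm10 and GRCm38. The authors deposited raw read counts per gene, as whole numbers without normalization, and columns named FPKM in the file headers, here found to use a library total 2.27 to 2.42 times the sum of the counts. Counts summed to 49921946 to 68260600 per library. Each 95% confidence interval rests on the standard error of the test, which includes the spread between libraries. Whether counting used strand is not given in the sources used here. Libraries were grouped by the treatment in their labels.

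The test was run on genes averaging 25 counts or more, with edgeR 4.0.16 (glmQLFit and glmQLFTest, TMM, no covariate) in R 4.3.3, with the thresholds of the study, whose moderated test is an alternative here. Each standard error is the fold change divided by the root of its F statistic. Named genes are all members, the 2 genes of lowest FDR in each direction per pathway list, listed markers, and the 3 nearest genes per member. Src, Plat, Nrp1, Kit, Flt3, Csf1r, and the genes that overlap members were named after their values were seen. For 1 gene counted in the attenuator list, values are not reported here. The members and lists were chosen with earlier results of these data known. The alternatives were DESeq2 1.42.0, limma 3.58.1 (limma-trend) on log2 CPM (prior count 2), log2(FPKM + 0.1), and log2(FPKM + 1), RLE or no normalization factors, no filter, a minimum of 10 counts per library, each library left out, a replicate block, and, added after seeing the data, aged bleo 4 and aged sham 4 left out together.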

Additional observations from a re-analysis of the deposited data

How the results depend on the processing

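The same number of members, 4, was called under all 19 alternatives, and the calls of Pdgfa, Pdgfc, Pdgfd, and Pdgfrb and their directions held in each of them. Pdgfra and Pdgfrl remained uncalled with the same direction in all 19. Pdgfb, never called, changed sign, with a log2 fold change from -0.09 to 0.21 when 1 library was left out and of -0.10 without aged bleo 4 and aged sham 4. On log2(FPKM + 1), which shrinks low genes, the log2 fold change of Pdgfc was 1.81, and 1785 genes were called in all in place of 4022. Leaving out 1 library gave 3525 to 4597 calls, no filter gave 4978, and the pathway genes called ranged from 9 to 12. With 1 library left out, log2 fold changes ranged from 3.16 to 3.41 for Pdgfc, 1.58 to 1.97 for Pdgfa, -1.80 to -1.27 for Pdgfd, 0.60 to 0.71 for Pdgfrb, -0.54 to -0.32 for Pdgfra, and 0.31 to 0.44 for Pdgfrl. Same-numbered libraries were not shown to deviate together (r from -0.13 to 0.33 over 4 pairs, and 1 of 4 aged sham libraries was closest to its own number), so the numbers were not taken as pairs. A replicate block over the 4 shared numbers, which leaves out aged bleo 5, gave 3541 calls and log2 fold changes of 3.12 for Pdgfc, 1.77 for Pdgfa, -1.56 for Pdgfd, and 0.68 for Pdgfrb. The library names end in 4, 5, or 6, whose meaning is not given, and a single aged bleo library (number 4) has the ending of the aged sham libraries, so no comparison within an ending was made. Pdgfb had 149 to 316 counts per library.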
